A study of Mus musculus with 16 samples.

Results

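The expression of 33 genes of cholesterol and fatty acid synthesis was followed across mouse glioblastomas. The genes were taken by symbol from a list of pathway members that names genes and no values, drawn up when earlier results of these data were known, and all 33 were found among the 26466 genes of the table of all libraries. They are 23 synthesis enzymes, of which 6 act in the mevalonate steps, 11 between squalene and cholesterol and 6 in fatty acid synthesis and desaturation. The others are 5 genes that control the sterol regulatory element binding proteins (SREBPs), the sterol carrier Stard4, the 2 efflux transporters Abca1 and Abcg1, and the 2 liver X receptors Nr1h2 and Nr1h3. All 33 passed the filter on low values.

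Total RNA of 16 transplanted mouse tumours was sequenced in bulk. The labels divide the tumours into 2 kinds, called Type 1 and Type 2, and each kind into Control and TAM depleted tumours, where TAM stands for tumour-associated macrophage (macrophages and microglia inside a tumour). Type 1 had 5 Control and 3 TAM depleted tumours, and Type 2 had 4 of each. No source used here gives the animals' strain, age or sex, the cell and driver alleles behind each tumour kind, or the agent that removed the TAMs. Nothing ties a tumour to an animal of its own, and p-values therefore reflect only the spread among these tumours. In bulk tissue, fewer cells of a type and less RNA per cell cannot be told apart.

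Cholesterol is built from acetyl-CoA through mevalonate and squalene, and fatty acids are built from the same precursor through malonyl-CoA. SREBPs are held in the endoplasmic reticulum with Scap by the Insig proteins while sterols are plentiful, and move on to the nucleus to switch on the synthesis genes when sterols fall. Liver X receptors sense oxidised sterols and switch on the export of cholesterol through Abca1 and Abcg1. In the brain, cholesterol is made locally, largely by astrocytes and by the oligodendrocyte lineage, because plasma lipoproteins do not cross the blood-brain barrier.

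The promoters of 4 genes are shown because they carry, or lack, the short elements that the SREBPs and their usual partners recognise: those of Hmgcs1 (which makes HMG-CoA for the mevalonate steps), Fasn (fatty acid synthase), Srebf1 (the SREBP gene that differed between the tumour kinds) and Abca1 (an efflux transporter). Each is the 250 bases before a transcript start, 5′ to 3′ on the gene's strand, from RefSeq on GRCm38.p6. Capitals mark matches on either strand to an SRE-1 core (TCACNCCAC), an NF-Y box (CCAAT) or an Sp1 box (GGGCGG), where neighbouring matches may overlap.
Hmgcs1, chr13:119690101-119690350, plus strand: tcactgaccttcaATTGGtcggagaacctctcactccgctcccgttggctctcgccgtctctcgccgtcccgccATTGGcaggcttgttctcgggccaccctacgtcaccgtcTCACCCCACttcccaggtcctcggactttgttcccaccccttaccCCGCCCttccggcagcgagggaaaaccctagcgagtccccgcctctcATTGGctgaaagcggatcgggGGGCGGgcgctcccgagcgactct
Fasn, chr11:120824548-120824797, minus strand: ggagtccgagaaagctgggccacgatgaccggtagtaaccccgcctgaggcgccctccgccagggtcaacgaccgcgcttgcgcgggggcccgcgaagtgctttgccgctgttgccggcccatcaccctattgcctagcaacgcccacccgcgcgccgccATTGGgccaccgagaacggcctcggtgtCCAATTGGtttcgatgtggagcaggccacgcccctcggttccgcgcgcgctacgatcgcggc
Srebf1, 1 of its 3 starts, chr11:60210472-60210721, minus strand: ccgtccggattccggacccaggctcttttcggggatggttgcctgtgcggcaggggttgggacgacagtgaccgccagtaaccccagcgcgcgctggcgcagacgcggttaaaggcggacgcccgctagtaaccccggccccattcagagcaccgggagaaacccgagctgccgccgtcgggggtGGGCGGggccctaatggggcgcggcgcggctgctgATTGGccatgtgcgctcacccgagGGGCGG
Abca1, chr4:53159896-53160145, minus strand: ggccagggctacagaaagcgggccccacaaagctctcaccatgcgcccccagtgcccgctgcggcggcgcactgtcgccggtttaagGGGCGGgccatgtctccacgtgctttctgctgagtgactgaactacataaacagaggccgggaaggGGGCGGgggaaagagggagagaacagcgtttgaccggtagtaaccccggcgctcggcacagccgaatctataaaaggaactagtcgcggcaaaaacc
The Hmgcs1 sequence holds the SRE-1 core TCACCCCAC, 3 NF-Y boxes and 2 Sp1 boxes. The Fasn sequence holds 3 NF-Y boxes, 2 of which overlap in CCAATTGG, and the Abca1 sequence holds 2 Sp1 boxes and no NF-Y box.

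A promoter window of 300 bases, from 250 before to 50 after a start, was matched for 26 of the 33 genes. Of these, 20 held an NF-Y box, among them 16 of the 18 enzymes with a window, against 41.1% of all 27025 genes with windows. An Sp1 box was found in 20 of the 26, against 38.2% of all genes. The SRE-1 core as spelled was found in 1 of the 26, Hmgcs1, against 1.44% of all genes. An exact direct repeat of AGGTCA spaced by 4 bases, the textbook form of the liver X receptor element, was found in none of the 26 and in 0.0148% of all genes. So rare a spelling would be missing from nearly any 26 genes. Inexact copies were not searched for, so these promoters cannot be said to lack such elements. These matches describe letters in the window and are no evidence of binding. Genes without a window were Fdps, Fdft1, Sqle, Scd1, Scd2, Stard4 and Abcg1.

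Sequencing depth was 4.21 to 18.3 M (mega) recovered reads per library. In 9 libraries, 2717 to 8650 reads per M fell on 997 olfactory and vomeronasal receptor genes, which are not known to be active in glioma, and in the other 7 it was 97.0 to 811. Those 9 had 4.21 to 9.16 M reads, of which the entry Gm10800 alone took 13.8 to 58.2%. The other 7 had 13.1 to 18.3 M reads, with 0.0491 to 2.03% on Gm10800. Fewer reads were thus left for other genes in the 9. The 9 are called high-background here and comprise all 5 Type 1 Control, 2 Type 2 Control (replicates 1 and 3) and 2 Type 2 TAM depleted libraries (replicates 3 and 4). In Type 1, background and depletion therefore cannot be told apart, while in Type 2 the 2 background sets are balanced between the groups. Within Type 2, the 23 synthesis enzymes were mostly at lower levels in the high-background libraries: the median log2 difference from the low-background libraries was -0.52, with 19 of 23 below 0, against 0.06 over all genes. TAM depletion was visible in Type 2, where the summed normalised count of 15 TAM markers spanned 4994 to 14738 in Control and 2291 to 4965 in TAM depleted tumours and 4 of the 15 markers fell in the fit. Over all genes 3.61% passed there. In Type 1 the sums spanned 2264 to 4746 and 1946 to 4772, and 0 of 15 passed, as did 0.0% of all genes, so the test could not show a fall. Of the 15 TAM markers, 13 lay below 0 in Type 1, with a median log2 difference of -0.26 against -0.06 over all genes. All 4 monocyte markers tested lay below 0 too, with a median of -1.53. Every TAM marker had reads in all 16 libraries.

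Levels were compared between genes as normalised counts per kilobase (kb) of exon. By the median over 16 libraries, the desaturase Scd2 was the highest at 644 per kb (range 317 to 2119). ATP citrate lyase, Acly, which makes cytosolic acetyl-CoA, followed at 457 per kb, then Fasn at 333 and the desaturase Scd1 at 187. These fatty acid genes headed the order, while the fatty acid genes Elovl6 (148 per kb, place 7) and Acaca (82.4 per kb, place 15) stood lower. The range widest relative to its lowest value was that of Scd1, from 25.8 to 755 per kb. Among the sterol enzymes Cyp51, the lanosterol demethylase, stood highest at 161 per kb, before squalene epoxidase, Sqle, at 141. Neighbours in this order overlapped in their ranges over libraries.

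Among the regulators Srebf2, the SREBP gene linked mainly to sterol synthesis, had a median of 154 per kb and Srebf1, linked mainly to fatty acid synthesis, 80.3. The lowest of the 33 were Nr1h3 (17.5 per kb), Tm7sf2, a sterol reductase (11.1), and farnesyl diphosphate synthase, Fdps (6.51). The reads expected from background, scaled by exon length from the receptor genes, came to a median of 68.1% of the reads of Fdps, 44.1% of Tm7sf2 and 30.7% of Nr1h3. For Scd2, Acly and Fasn these shares were 0.796%, 1.45% and 2.16%. Values of Fdps, Tm7sf2 and Nr1h3 in high-background libraries are therefore uncertain. In single libraries the share reached 467% for Fdps, 427% for Tm7sf2 and 140% for Nr1h3. Among the other genes, the highest share in any library was 161% for Lss, 139% for Mvk, 107% for Scap and 105% for Idi1. It was 94.5% for Abcg1, 83.2% for Pmvk and 79.3% for Insig2. For Ebp it was 66.5%, for Mvd 60.2%, for Fdft1 59.7% and for Hsd17b7 50.2%. For Stard4 it was 34.9 to 73.2% in the Type 1 Control libraries. Values of these genes in the libraries concerned are uncertain as well.

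The library kit does not mark strand, and no source used here says how reads in shared sequence were counted. Sequence shared with other genes was counted as the percentage of 50-base windows of exon that also occur in another gene: it was 30.4% for Acaca (mainly Gm5182), 26.5% for squalene synthase, Fdft1 (mainly Ctsb, a cathepsin), 26.2% for Fdps (Gm43738), 25.3% for Idi1 (Gm13502) and 11.6% for Hmgcs1 (Gm48342). Scd1 and Scd2 shared 4.56% and 3.97% of their windows, mainly with each other. The values of these genes are therefore uncertain, and the percentages do not give the size of any error.

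**Figure D1:**
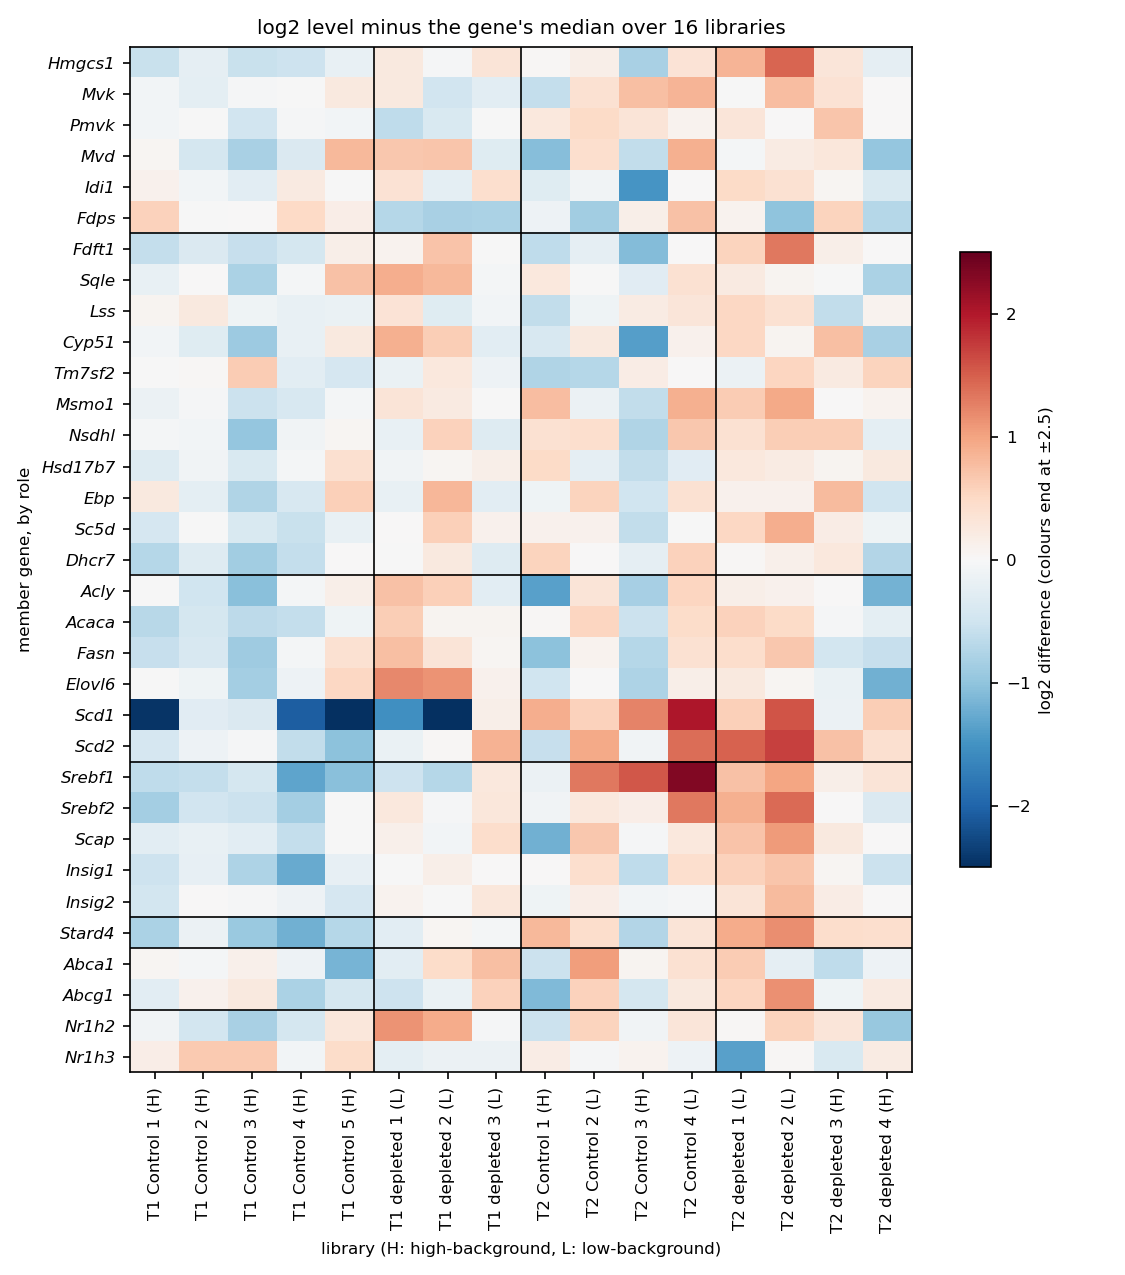
Level of each of the 33 genes (rows, by role) in each of the 16 libraries (columns, by group; H and L mark high- and low-background libraries) as the log2 difference from the gene's own median over libraries; colours end at ±2.5. Scd1 and Srebf1 had their highest values in Type 2 Control replicate 4. In 4 of the 5 Type 1 Control libraries only 2 to 5 of the 23 enzymes exceeded their own median, and in Type 2 TAM depleted replicate 2 there were 22.

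Between the Control groups, the 2 tumour kinds differed in Scd1 and Srebf1. Scd1, the desaturase that makes monounsaturated fatty acids and is best known from liver and fat, was 6.87-fold higher in Type 2 Control than in Type 1 Control tumours. Srebf1, which encodes SREBP-1, was 4.20-fold higher. The other 31 genes did not pass the test, the isoenzyme Scd2 among them. The share of genes past an adjusted p of 0.05 was 3.09% over all 26463 genes tested (603 higher and 216 lower in Type 2), and 2 of the 33 passed by limma-trend.

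Normalised counts of Scd1 were 166, 748, 712, 217 and 126 in the 5 Type 1 Control tumours. In the 4 Type 2 Control tumours they were 1712, 1352, 2142 and 3692. Every Type 2 Control value was above every Type 1 Control value, and the log2 difference was 2.78 (SE 0.60, 95% interval 1.52 to 4.04, limma-trend adjusted p = 0.0146). The mean was 394 ± 309 (SD, n = 5) in Type 1 Control and 2225 ± 1030.2 (SD, n = 4) in Type 2 Control, a wider spread relative to the mean in Type 1. Type 2 TAM depleted tumours had 1379, 2711, 822 and 1396 and Type 1 TAM depleted tumours 314, 152 and 1011. Only the Type 1 TAM depleted replicate 3 reached the range of the Type 2 TAM depleted tumours, and the log2 difference between the TAM depleted groups was 1.98 (limma-trend unadjusted p = 0.01, adjusted p = 0.266).

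Srebf1 gave 289, 297, 329.9, 179 and 217 in Type 1 Control tumours. Its values in Type 2 Control tumours were 408, 1123, 1316 and 2252. The groups did not overlap, with replicate 1 of Type 2 Control nearest to the Type 1 range, and the log2 difference was 2.07 (SE 0.39, 95% interval 1.24 to 2.90, limma-trend adjusted p = 0.00677). Of the 114 Srebf1 reads of that replicate, 38.4% were expected from background, against 13.1 to 32.2% in the Type 1 Control libraries. Its place above the Type 1 range is therefore uncertain. TAM depleted tumours had 316, 274 and 541 in Type 1. In Type 2 TAM depleted tumours the values were 749.8, 898, 497 and 562, inside the range of Type 2 Control. Between the TAM depleted groups the log2 difference was 0.87 (limma-trend adjusted p = 0.457).

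Both calls held in 27 of 29 alternative settings each. With the replicate number as a block the adjusted p was 0.0940 for Scd1 (log2 difference 2.47) and 0.0547 for Srebf1 (2.01). Without Type 2 Control replicate 4, the library with the highest values of both genes, Scd1 gave 2.502 (limma-trend adjusted p = 0.0547). Among the high-background libraries alone (5 Type 1 Control and 2 Type 2 Control, a setting chosen after the data were seen), Scd1 differed by 2.67 (adjusted p = 0.0277) and Srebf1 by 1.51 (adjusted p = 0.0650).

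Cell type markers differed between the same Control groups. The 6 oligodendrocyte precursor markers had a median log2 difference of 3.09, 4 of 6 rose by limma-trend, and their summed normalised counts spanned 609.9 to 3365 in Type 1 Control and 5355 to 30381 in Type 2 Control tumours. All 15 TAM markers lay above 0 with a median of 1.26, and 0 of 15 passed (12 at an unadjusted p under 0.05). All 10 neuron markers lay below 0 with a median of -2.35, and 3 fell. None of these markers was at 0 in any Control library. Their part in the difference of Scd1 and Srebf1 was not tested.

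The 5 genes of SREBP control, Srebf1 included, all lay above 0 between the Control groups, with a median log2 difference of 0.65 against -0.23 over all genes. With the background set as a block 4 of the 5 lay above 0, and with background reads subtracted also 4. Srebf2 differed by 0.96 (limma-trend unadjusted p = 0.0174, adjusted p = 0.208), and it passed with quantile normalisation (0.90, adjusted p = 0.0390) and with library quality weights. Insig1, a target as well as a brake of the SREBPs, differed by 0.65 (adjusted p = 0.371). Scap, the SREBP escort, gave 0.20 and Insig2 0.20. The sterol carrier Stard4 gave 0.97 (unadjusted p = 0.00612, adjusted p = 0.115), and 1.28 without Type 2 Control replicate 3 (limma-trend adjusted p = 0.0264).

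None of the 17 sterol enzymes passed between the Control groups by limma-trend (1, Dhcr7, had an unadjusted p under 0.05, and limma-voom called 0), while Mvk, Msmo1 and Dhcr7 passed with library quality weights. The 6 mevalonate genes ran from -0.46 (Idi1) to 0.41 (Pmvk, phosphomevalonate kinase), and 4 of 6 lay above 0. Of the 11 genes from squalene to cholesterol 6 lay above 0, from -0.31 (Tm7sf2) to 0.73 (Dhcr7, the last reductase of one branch; limma-trend unadjusted p = 0.0172, adjusted p = 0.207). Among the 6 fatty acid genes, Acaca, the acetyl-CoA carboxylase that commits carbon to fatty acids, gave 0.61 (adjusted p = 0.342). Fasn gave -0.01 (95% interval -0.83 to 0.81) and Acly -0.04 (-0.94 to 0.86), intervals that end below the lower bound of Scd1. The median over the 23 enzymes was 0.15, with 13 of 23 above 0, which is 0.38 above the median of all genes. With the background set as a block it was -0.05 (9 of 23), when that of all genes was 0.13.

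In all, 6 of the 33 had an unadjusted p under 0.05 between the Control groups (13.7% of all genes), and the groups did not overlap for 3, Pmvk, Scd1 and Srebf1 (6.95% of all genes). With library quality weights 10 of 33 passed, when 24.8% of all genes did, and with limma-voom on the recovered reads the same number as in limma-trend, 2, passed. The efflux transporters gave 0.47 (Abca1) and 0.05 (Abcg1), and the liver X receptors 0.36 (Nr1h2) and -0.35 (Nr1h3), none of which passed.

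**Figure D2:**
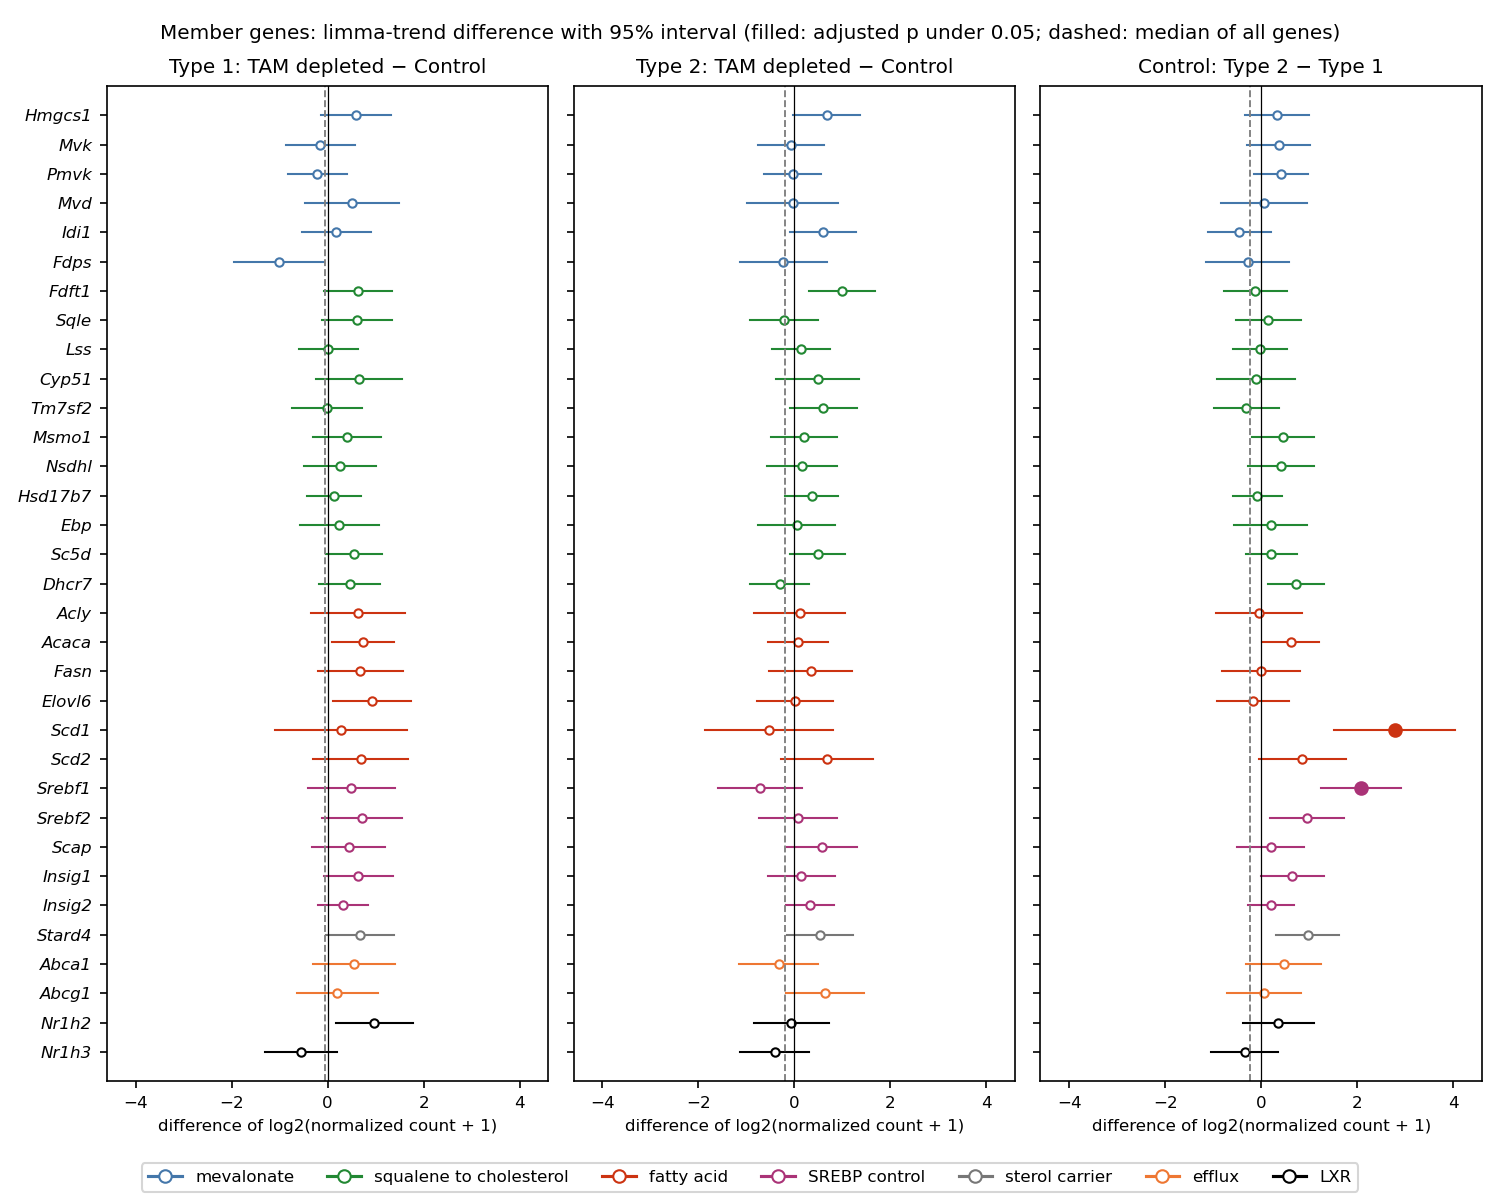
Difference of log2(normalised count + 1) with its 95% interval (x axis) for each gene (y axis, coloured by role) in Type 1 depletion, Type 2 depletion and between the Control groups; filled points have a limma-trend adjusted p under 0.05, and the dashed line is the median of all genes. Only Scd1 and Srebf1 between the Control groups are filled, at 2.78 and 2.07.

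The balance within pairs of related genes was read inside each library, where scaling cancels. Scd1 made up 11.5% ± 6.04 of the Scd1 plus Scd2 reads in Type 1 Control (SD, n = 5), 8.88% ± 4.73 in Type 1 TAM depleted (n = 3), 31.7% ± 11.6 in Type 2 Control (n = 4) and 16.7% ± 5.32 in Type 2 TAM depleted tumours (n = 4). The share reached 42.2% and 39.4% in the 2 high-background Type 2 Control libraries and 16.7% and 28.5% in the 2 low-background ones. The Control groups overlapped in this share, since Type 1 Control replicates 2 and 3 had 18.8% and 17.2%. The log2 ratio of Srebf1 to Srebf2 was -1.56 ± 0.51 in Type 1 Control and -0.46 ± 0.62 in Type 2 Control tumours, and -1.79 ± 0.41 and -1.24 ± 0.47 after depletion. Type 2 Control thus had the largest Srebf1 share of the 4 groups by mean, while its replicate 1, at -1.35, lay among the Type 1 Control values. The log2 ratio of Insig1 to Insig2 differed between Control and TAM depleted tumours of a kind by less than the SD of the Controls, at 1.17 ± 0.55, 1.49 ± 0.21, 1.62 ± 0.44 and 1.44 ± 0.33 in the same order as the shares of Scd1. These ratios carry no test.

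**Figure D3:**
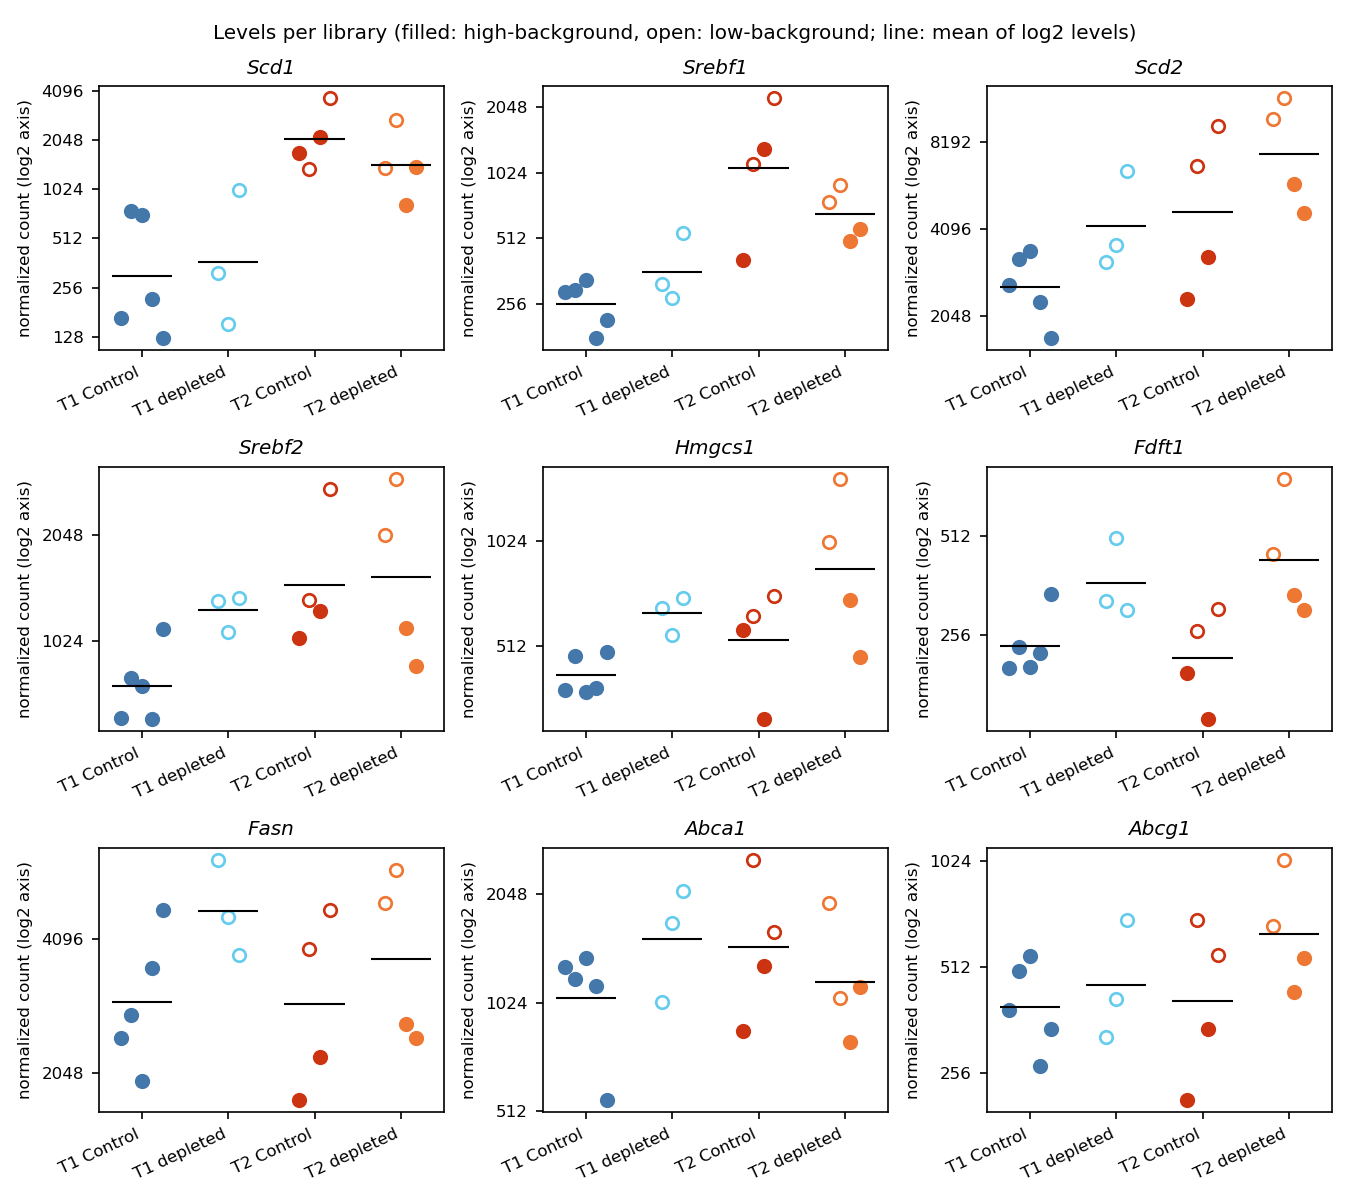
Normalised count per library (y axis, log2 scale) of 9 genes in the 4 groups (x axis; T1, Type 1; T2, Type 2); filled points are high-background libraries, open points low-background ones, and lines are means of log2 levels. Scd1 in Type 2 Control (1352 to 3692) lies above all Type 1 Control values (126 to 748).

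Between TAM depleted and Control tumours of Type 1, none of the 33 passed by limma-trend, and the share past the threshold over all genes was 0.0%. At an unadjusted p under 0.05 there were 4 of 33 (Fdps, Acaca, Elovl6 and Nr1h2), against 30.3% of all genes. The groups did not overlap for 7 of 33, against 39.1% of all genes: Hmgcs1, Msmo1, Sc5d, Acaca and Insig1 were above and Fdps and Nr1h3 below every Control value. Limma-voom also called 0 of 33. The median log2 difference of the 23 enzymes was 0.46, with 19 of 23 above 0, against -0.06 over all genes, of which 48.5% lay above 0.

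The enzymes' median thus lay 0.52 above that of all genes. New size factors move all genes of a library nearly alike, so this distance could hardly change under them. With size factors from the 5000 genes of highest mean the enzymes' median was -0.14 (8 of 23 above 0) and that of all genes -0.64, a distance of 0.50. With upper quartile scaling they were 0.07 (13 of 23) and -0.44, a distance of 0.51. The sign of the enzymes' own difference therefore depends on the size factors, and such settings could not test their place against all genes. That place did change under the other 3 settings. The medians of the enzymes and of all genes were 0.06 (16 of 23) and 0.06 with quantile normalisation. They were 0.72 (23 of 23) and 0.76 with background reads subtracted, and -0.18 (7 of 23) and 0.04 with the background set as a block.

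Some marker lists also lay above 0 in Type 1 depletion, with 0 passed by limma-trend and 0 at an unadjusted p under 0.05 in each of these 3 lists. The astrocyte list had 7 of 8 above 0 with a median log2 difference of 0.71, and its summed normalised counts spanned 3591 to 17120 in Control and 10759 to 38265 in TAM depleted tumours. The proliferation list had 10 of 10 above 0 with a median of 0.77 (sums of 4895 to 13694 and 10491 to 24866), and the oligodendrocyte precursor list 6 of 6 with a median of 0.46 (sums of 609.9 to 3365 and 1317 to 3257). The groups overlapped in all 3 sums, and no marker of these lists was at 0 in any Type 1 library. Their part in the values of the 33 genes was not tested.

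By role, in the same comparison the fatty acid genes lay above 0 in 6 of 6 in the deposited scaling, 5 of 6 with size factors from high genes, 3 of 6 with quantile normalisation and 2 of 6 with the background block; with upper quartile scaling it was 5 of 6 and with background subtracted 6 of 6. The mevalonate genes lay above 0 in 3 of 6, 0 of 6, 6 of 6 and 0 of 6 under the first 4 of these settings.

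Among the mevalonate genes, Fdps had 41.3, 27.3, 27.5, 39.2 and 30.7 normalised counts in Type 1 Control and 16.3, 15.1 and 15.5 in Type 1 TAM depleted tumours. The TAM depleted values were all lower, at a log2 difference of -1.02 (SE 0.44, limma-trend unadjusted p = 0.0347, adjusted p = 0.14). The Control libraries are high-background, and Fdps is the gene with the largest expected share of background reads. Its difference turned to 0.18 with quantile normalisation and to 3.07 with background reads subtracted, and it passed in neither. Hmgcs1, at 383, 481, 379.9, 389 and 494 in Control and 660.4, 553 and 703 in TAM depleted tumours, did not overlap between the groups (log2 difference 0.59, adjusted p = 0.241). Mvk, mevalonate kinase, gave -0.15, Pmvk -0.21, Mvd 0.51 and Idi1 0.18.

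From squalene to cholesterol 10 of 11 genes lay above 0, from -0.01 (Tm7sf2) to 0.66 (Cyp51). Sc5d, the sterol C5-desaturase, had 298, 399, 306, 271 and 354 in Type 1 Control and 403, 609 and 433 in Type 1 TAM depleted tumours. The lowest TAM depleted value lay just above the highest Control value, and the log2 difference was 0.55 (SE 0.28, limma-trend adjusted p = 0.184). Fdft1 gave 0.63 and Sqle 0.61, with overlapping groups. Lss, which closes the sterol rings, gave 0.02.

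In the deposited scaling, but not in 4 of the 5 others tried, all 6 fatty acid genes lay above 0. Acaca had 875, 1041, 899, 926 and 1312 in Type 1 Control and 2149.8, 1479.6 and 1471 in Type 1 TAM depleted tumours. The groups did not overlap, and the log2 difference was 0.74 (SE 0.31, 95% interval 0.10 to 1.39, limma-trend unadjusted p = 0.0266, adjusted p = 0.126). Elovl6, which lengthens palmitate, gave 0.93 (adjusted p = 0.128), Scd2 0.70, Fasn 0.69, Acly 0.64 and Scd1 0.28 with an interval of -1.10 to 1.66.

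Of the regulators, Insig1 had 271, 337, 226, 161 and 336 in Type 1 Control and 386, 428 and 389.6 in Type 1 TAM depleted tumours. All 3 TAM depleted values exceeded the Control values (log2 difference 0.64, SE 0.34, limma-trend adjusted p = 0.203). Srebf2 gave 0.72, Srebf1 0.49, Scap 0.44 and Insig2 0.33. Stard4, which carries cholesterol between membranes, had 104, 165, 95, 78.4 and 110.1 in Control and 151, 188 and 176 in TAM depleted tumours. Its groups overlapped through Control replicate 2 (log2 difference 0.67, adjusted p = 0.185).

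On the efflux side, Abca1 had 1285, 1193, 1361, 1138 and 550.4 in Type 1 Control and 1029, 1705 and 2086 in Type 1 TAM depleted tumours. The groups overlapped, with Control replicate 5 far below the other Controls (log2 difference 0.55, limma-trend adjusted p = 0.343). Abcg1 gave 0.20. Nr1h2, the widely expressed receptor, had 314, 243, 189, 247 and 408 in Control and 731, 639.7 and 325 in TAM depleted tumours, a log2 difference of 0.98 (SE 0.38, limma-trend unadjusted p = 0.0205, adjusted p = 0.116). Replicates 1 and 2 of the TAM depleted group exceeded all Controls, and replicate 3 did not. Nr1h3, the receptor found mainly in macrophages, liver and fat, had 49.6, 70.3, 70.0, 42.2 and 61.4 and 37.1, 39.9 and 39.5 (log2 difference -0.56, adjusted p = 0.278), all TAM depleted values being lower. With background reads subtracted its difference was 0.11, on the same side of 0 as that of Nr1h2 (1.15).

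In Type 1, a pair of alternative settings called many of these genes. In the authors' table of Type 1 alone, which is scaled separately, 20 of 33 passed by limma-trend, when 55.1% of all genes tested did. With library quality weights it was 14 of 33, when 51.8% of all genes did. The share of these genes was thus close to that of all genes in the first and below it in the second. No value within 1 background set exists for Type 1, since every Control library is high-background and every TAM depleted library low-background.

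In Type 2 depletion 0 of 33 passed by limma-trend, while 3.61% of all genes did (627 higher and 329 lower), and limma-voom also called 0 of 33. At an unadjusted p under 0.05 there was 1 of 33, Fdft1, against 18.0% of all genes. The groups did not overlap for 0 of 33, against 7.25% of all genes. The 23 enzymes had a median log2 difference of 0.14, with 16 of 23 above 0, against -0.21 over all genes. That is a distance of 0.35 between the medians. Under other scalings the medians of the enzymes and of all genes were -0.27 (7 of 23) and -0.60 with size factors from high genes, -0.07 (9 of 23) and -0.41 with upper quartile scaling, 0.10 (13 of 23) and -0.05 with quantile normalisation, and 0.37 (20 of 23) and 0.18 with background reads subtracted. The enzymes' own sign turned under the first 2, which could hardly change the distance from all genes. With quantile normalisation and with background reads subtracted their median stayed above that of all genes, at smaller distances of 0.16 and 0.20. Within the high-background libraries the enzymes' median was 0.29 and within the low-background ones 0.07.

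Of the mevalonate genes, Hmgcs1 had the smallest p. Its values were 568, 624, 318 and 714 in Type 2 Control and 1016, 1539.7, 696 and 479 in Type 2 TAM depleted tumours. The 2 low-background TAM depleted libraries, replicates 1 and 2, were above all Controls and the 2 others were not (log2 difference 0.67, SE 0.33, limma-trend adjusted p = 0.301). Idi1, the isopentenyl diphosphate isomerase, gave 0.60, and Mvk, Pmvk, Mvd and Fdps lay between -0.23 and -0.03.

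Fdft1, which joins 2 farnesyl units to squalene, had 197, 263, 143 and 308 in Type 2 Control and 451, 762, 339 and 306 in Type 2 TAM depleted tumours. Only the TAM depleted value of replicate 4 lay within the Control range, and the log2 difference was 0.99 (SE 0.32, 95% interval 0.30 to 1.67, limma-trend unadjusted p = 0.00747, adjusted p = 0.105). It was 0.94 within the high-background and 1.04 within the low-background libraries, and with the background set as a block the adjusted p was 0.0239. Fdft1 is the gene that shares 26.5% of its exon windows, mainly with Ctsb. The other 10 genes from squalene to cholesterol ran from -0.30 (Dhcr7) to 0.60 (Tm7sf2), and 8 of them lay above 0.

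The fatty acid gene with the smallest p was Scd2, the main desaturase of brain. It had 2345, 6757, 3289.9 and 9253 in Type 2 Control and 9821, 11579, 5847 and 4638 in Type 2 TAM depleted tumours. Replicates 1 and 2 of the TAM depleted group exceeded all Controls, and replicates 3 and 4 lay within their range (log2 difference 0.67, SE 0.45, limma-trend adjusted p = 0.464). Scd1 gave -0.52 with an interval of -1.85 to 0.81. The pair thus lay on opposite sides of 0, neither past the threshold. Fasn gave 0.34, Acly 0.11, Acaca 0.07 and Elovl6 0.02.

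Srebf1 was the SREBP control gene with the smallest p in Type 2 depletion, at a log2 difference of -0.71 (SE 0.42, limma-trend adjusted p = 0.393) from the values given above. It was -0.47 within the high-background and -0.95 within the low-background libraries. Srebf2 gave 0.07, Scap 0.58, Insig1 0.14 and Insig2 0.33. Stard4 had 318, 247, 109.5 and 228 in Control and 346, 406, 247 and 243 in TAM depleted tumours. The groups overlapped (log2 difference 0.52, adjusted p = 0.424).

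Abcg1, which hands cholesterol to high-density lipoprotein, had 214, 694, 340.1 and 551 in Type 2 Control and 671, 1030.3, 434 and 543 in Type 2 TAM depleted tumours. One TAM depleted value exceeded all Controls, and the log2 difference was 0.63 (SE 0.39, limma-trend adjusted p = 0.414). Abca1 gave -0.32. Nr1h3 had 50.04, 43.4, 47.2 and 40.2 in Control and 16.5, 44.8, 33.4 and 50.8 in TAM depleted tumours, with the lowest value in TAM depleted replicate 1 (log2 difference -0.41, adjusted p = 0.556). Nr1h2 gave -0.07. In the same comparison the 10 neuron markers had a median log2 difference of 3.60 and 7 rose, and the 10 oligodendrocyte markers had a median of 1.38 and none passed. The astrocyte list had 7 of 8 above 0 with a median of 1.24, and 1 rose. The oligodendrocyte precursor list went the other way, with 4 of 6 below 0 and a median of -0.78, and 1 fell. The proliferation list had 9 of 10 below 0 with a median of -0.80, and none passed. Their part in the values of the 33 genes was not tested.

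Between the TAM depleted tumours of both kinds, 0 of 33 passed by limma-trend, when 0.185% of all genes did, and limma-voom also called 0. At an unadjusted p under 0.05 there were 3 of 33, against 12.1% of all genes: Scd1 (1.98), Elovl6 (-1.08) and Stard4 (0.82). The groups did not overlap for 2 of 33, Pmvk and Stard4, against 9.07% of all genes. Within the low-background libraries (2 of Type 2 and 3 of Type 1) Scd1 gave 2.40 and Srebf1 1.19. Other genes without overlap there included Scd2 (1.35), Stard4 (1.13), Srebf2 (0.98) and Hmgcs1 (0.98). Pmvk, Lss, Msmo1, Hsd17b7, Scap, Insig1 and Insig2 did not overlap either, at smaller differences. The share of all genes without overlap among these few libraries was not computed, so nothing is concluded from the list. Elovl6 (-0.66) and Sqle (-0.41) were among those below 0. Over all TAM depleted tumours, the 10 oligodendrocyte markers had a median log2 difference of 2.57 and the 10 proliferation markers -1.76. None of these passed, while 10 and 7 had a limma-trend unadjusted p under 0.05, against 12.1% of all genes. Their part in the values of the 33 genes was not tested. The comparison of the TAM depleted groups shares no library with that of the Control tumours, and 0 of 33 passed in it under any setting tried.

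The difference between the depletion responses, Type 2 minus Type 1, passed in 0 of 33 genes by limma-trend, as in 0.0% of all genes. An unadjusted p under 0.05 was found for 0 of 33, against 10.1% of all genes, and limma-voom called 0 of 33. Scd1 gave -0.80 (95% interval -2.72 to 1.11) and Srebf1 -1.20 (-2.47 to 0.06). The 6 fatty acid genes had a median of -0.60 with 0 of 6 above 0, against 0.16 over all genes. With background subtracted 0 of 6 lay above 0, with quantile, upper quartile and high-gene scaling 1 of 6, and with the background set as a block 4 of 6 (median 0.31, against -0.25 over all genes). The block corrects the Type 1 response by a background difference seen only within Type 2. No member's difference of responses passed under any setting tried.

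Synthesis was set against efflux within each library, as the mean log2 level of the 23 enzymes minus that of Abca1 and Abcg1. Its value was -1.16 ± 0.54 in Type 1 Control (SD, n = 5), -1.20 ± 0.63 in Type 1 TAM depleted (n = 3), -1.16 ± 0.56 in Type 2 Control (n = 4) and -1.12 ± 0.40 in Type 2 TAM depleted tumours (n = 4). The group means differed by -0.03 in Type 1 depletion, 0.04 in Type 2 depletion, 0.00 between the Control groups and 0.08 between the TAM depleted groups, all smaller than the spread between replicates of a group. The enzymes' mean was 8.17 ± 0.18, 8.51 ± 0.11, 8.43 ± 0.38 and 8.63 ± 0.35 in the same order of groups, and that of the transporters 9.34 ± 0.40, 9.71 ± 0.53, 9.59 ± 0.70 and 9.75 ± 0.43. The scores carry no test, and with 2 transporters the efflux mean follows single libraries: Type 1 Control replicate 5, where Abca1 was low, had the highest balance of its group at -0.36.

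**Figure D4:**
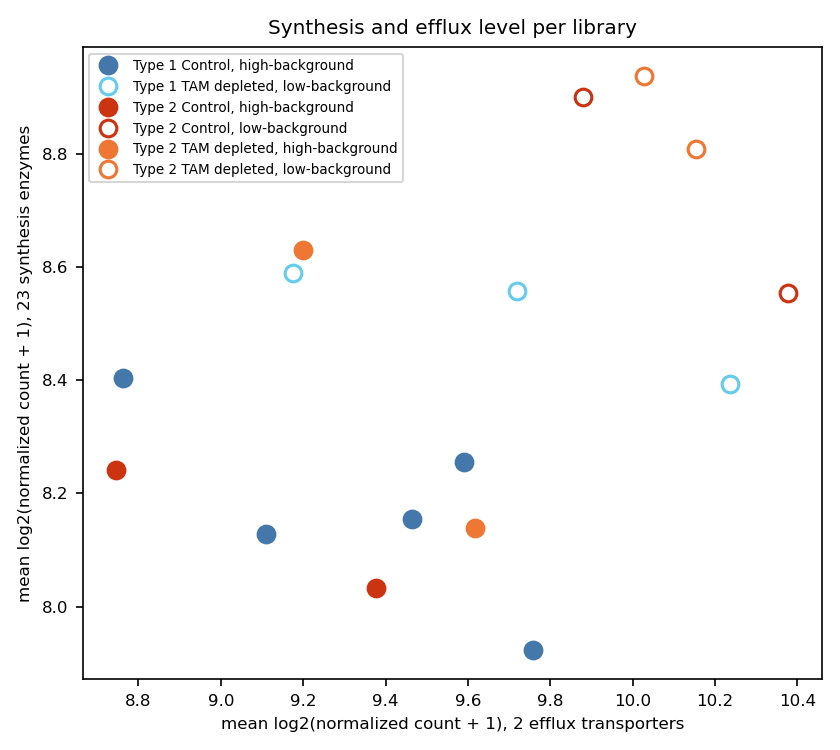
Mean log2(normalised count + 1) of the 23 synthesis enzymes (y axis) against that of the 2 efflux transporters (x axis) in each of the 16 libraries, coloured by group; filled points are high-background libraries. The enzyme mean of the 9 high-background libraries ran from 7.92 to 8.63 and that of the 7 low-background ones from 8.39 to 8.94, and the 4 groups overlap.

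Other genes of the pathway were taken as 4 further lists. Of 8 other genes of sterol and isoprenoid synthesis, 0 passed in any of the 5 comparisons by limma-trend. At an unadjusted p under 0.05 there were 2 in Type 1 depletion, 2 in Type 2 depletion and 3 between the TAM depleted groups, when 30.3%, 18.0% and 12.1% of all genes had such a p. Of 6 other genes of SREBP processing, 0 passed (1 each in Type 1 depletion, between the Control groups, between the TAM depleted groups and for the difference of responses had such a p, against 30.3%, 13.7%, 12.1% and 10.1% of all genes). Among 11 other genes of fatty acid synthesis, 2 rose between the Control groups, when 3.09% of all genes passed in either direction. At an unadjusted p under 0.05 there were 4 of 11 there and 4 of 11 in Type 2 depletion, against 13.7% and 18.0% of all genes. Malic enzyme, Me1, a source of NADPH for fatty acid synthesis, averaged 241 ± 32 (SD, n = 5) in Type 1 and 665 ± 149.9 (n = 4) in Type 2 Control tumours, a log2 difference of 1.44 (limma-trend adjusted p = 0.00307). The elongase Elovl1, which acts on very long chains, averaged 81.9 ± 11 and 214 ± 70.0, a log2 difference of 1.33 (adjusted p = 0.0111).

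Of 12 genes of sterol storage, oxidation and liver X receptor response that were tested, 1 passed between the Control groups and 1 in Type 2 depletion, when 3.09% and 3.61% of all genes did. At an unadjusted p under 0.05 there were 4 of 12 and 5 of 12, against 13.7% and 18.0% of all genes. Lysosomal acid lipase, Lipa, averaged 188 ± 48.1 in Type 1 and 402 ± 125 in Type 2 Control tumours (log2 difference 1.07, limma-trend adjusted p = 0.0463). Cyp46a1, the neuronal cholesterol 24-hydroxylase, averaged 71 ± 66.3 in Type 2 Control and 653 ± 489 in Type 2 TAM depleted tumours (SD, n = 4 each), a log2 difference of 3.32 (SE 0.85, limma-trend adjusted p = 0.0421). It rose in the comparison in which 7 of 10 neuron markers rose, and the part of neurons in it was not tested. Ch25h was not analysed here.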

How the data were processed

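Bulk RNA-seq values of 16 tumours were used. Per the labels' protocols, RNA came from TRIzol and a column kit, and SMART-Seq v4 made the cDNA. Per the submitters' processing notes, STAR 2.7.8a, GRCm38 and DESeq2 were used; the annotation, the counting tool and the filter on low genes are not given. The authors deposited log2 values, on a variance-stabilised scale, in a table of all libraries and in 1 table per tumour kind. These log2 values were inverted to normalised counts, and each library's counts proved to be whole multiples of a step of its own: 100% came out whole within 0.05 reads, the farthest by 8.85e-08. The steps thus return the reads and the size factors.

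The 33 genes were matched by symbol. The genes and all other lists were chosen with earlier results of these data known. Genes with a normalised count of at least 10 in 3 libraries (26463) entered limma-trend (limma 3.58.1 in R 4.3.3) as log2(normalised count + 1), with 4 group means over 16 libraries (12 residual degrees of freedom, prior 4.74). Each of 5 contrasts was tested 2-sided, and p-values were adjusted by Benjamini-Hochberg over every gene fitted, with a threshold of 0.05. A log2 difference is on the log2(normalised count + 1) scale, which understates changes of low genes. Values in every library are given for genes past the threshold and for the gene of each role with the smallest p in each depletion contrast; the rest are given by range, and genes of the other pathway lists are named only past the threshold. Exon lengths and shared windows came from GENCODE vM21, and promoters from RefSeq on GRCm38.p6. Background was called high above 1000 receptor reads per M.

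Depth was 4.21 to 18.3 M reads per library, and reads carry no molecular identifiers. Libraries of a group all differed beyond sampling noise, the closest pair at a chi-square of 9.07 per degree of freedom. On simulated counts, with no background reads and 50 genes at each fold, 2-fold changes were recovered in 2% (Type 1 depletion, 26161 genes) and 4% (Control tumours, 26159 genes), 4-fold in 58% and 54%, and 8-fold in 100% and 98%. In Type 2 depletion (26161 genes) the shares were 4%, 58% and 96%. The simulation gave every gene the same spread relative to its mean, the median over genes. It also changed fewer genes than passed between the Control groups or in Type 2 depletion. Its shares therefore need not hold for single genes of these data. In the setting with a background block, the size of the block was estimated from the Type 2 libraries alone. As alternatives, the pseudocount was set to 0.5 or 8, the filter dropped or raised to 50, and 3 scalings tried, besides limma-voom, quality weights, a background block, background subtraction, background sets alone, the tables of 1 tumour kind, a replicate block and leaving out each library.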

Additional observations from a re-analysis of the deposited data

Results flagged for a closer look

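In groups of 4 or 5 libraries, a value far from the others of its group was looked for with Dixon's test (95% critical values 0.829 and 0.710) in 99 combinations of gene and group, and 4 were found; chance alone gives about 1 in 20. Pmvk was 33.7 in Type 1 Control replicate 3 against 45.1 to 47.4 in the other 4 libraries. Nsdhl, a sterol dehydrogenase, was 96.2 in the same library against 176 to 195. Acly was 1069 in Type 2 TAM depleted replicate 4, the library of that group with the most receptor reads (5931 per M), against 2447 to 2684. Abca1 was 550.4 in Type 1 Control replicate 5 against 1138 to 1361. All are normalised counts.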

How the results depend on the processing

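Among the 33 genes, calls moved under few settings. In Type 1 depletion 14 passed with quality weights and 20 in the table of Type 1 alone (13721 and 16381 of all genes), against 0 in each other setting. In Type 2 depletion 1 passed with the background set as a block (Fdft1). Between the Control groups 10 passed with quality weights, 3 with quantile normalisation (Srebf2 besides Scd1 and Srebf1) and 1 among high-background libraries alone (Scd1), and leaving out 1 library gave 1 to 3 (1 without Type 2 Control replicate 4, 3 without Type 2 Control replicate 3). No call changed direction. Differences that were never called changed sign in 85, 101, 66, 47 and 83 combinations of gene and setting of 956, 1022, 956, 956 and 923, in the order Type 1 depletion, Type 2 depletion, Control, TAM depleted, difference of responses.

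With the replicate number as a replicate block, 0 of the 33 passed between the Control groups, and over all genes 0, 297, 347, 16 and 1 passed in the same order. Same-numbered libraries did not deviate together throughout (r from -0.16 to 0.37 in Type 1 and -0.67 to 0.50 in Type 2), so the numbers were not taken as pairs.

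Counts over all genes moved more. Type 2 depletion (956) gave 436 with quality weights, 2635 with the background block, 525 in high-background libraries alone, and 0 in low-background libraries alone, with background subtracted and in the table of Type 2 alone. The Control groups (819) gave 1804 with quantile normalisation, 2343 with limma-voom, 6559 with quality weights and 326 with background subtracted. The TAM depleted groups (49) gave 31 with quantile normalisation, 429 with quality weights, 215 with the background block, 24 in low-background libraries alone (a setting chosen after the data were seen) and 13 with background subtracted. The difference of responses (0) gave 748 with quality weights and 166 with the background block. Leaving out 1 library gave 0 to 2 genes in Type 1 depletion (2 without Type 2 Control replicate 1 or Type 2 TAM depleted replicate 4). In Type 2 depletion it gave 100 to 1259: 100 without Type 2 Control replicate 3, 285 and 302 without TAM depleted replicates 2 and 1, 605 without Type 2 Control replicate 1, and 629 and 635 without Type 1 Control replicates 2 and 4. Between the Control groups it gave 510 to 1141, with 510 without Type 1 Control replicate 4 and 524 without Type 2 Control replicate 3. Between the TAM depleted groups it gave 12 to 234, with 12, 15 and 234 without Type 1 TAM depleted replicates 1, 2 and 3 and 77 without Type 2 Control replicate 1. The causes were not tested. The balance of synthesis and efflux stayed within 1 SD (0.54) of the values given under all settings tried. On the simulated counts, changes of 2-fold were mostly not recovered with 3 to 5 libraries per group.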
